A study of Mus musculus with 11 samples.

Results

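The genes described here are 10 members of the antigen presentation machinery, taken from the deposited prostate tables by name: H2-K1, H2-D1, B2M, TAP1 and PSMB8 for the class I pathway, and H2-AA, H2-AB1, H2-EB1, CD74 and CIITA for the class II pathway. They are 10 of the 29291 gene loci listed, and all 10 passed the filter on low values, a level of 1 FPKM reached by 2 or more libraries, which kept 15583 loci. FPKM, the deposited unit, scales the fragments of a gene to its exon length and to the depth of sequencing. Gene names are written in capitals as the tables write them. RNA came from prostates of 15-month-old mice whose labels give the strain C57BL/6, in 4 groups: 3 wild-type libraries (WT), 3 libraries with the ERG transgene (Pb-ERG in the labels, Pb-T2-ERG here), 2 libraries with the mutant Trp53 allele opposite a deleted one (Trp53pcR172H/-), and 3 libraries that carry both (Pb-ERG, Trp53pcR172H/- in the labels, called double-mutant here). The transgene and the Cre recombinase that acts on Trp53 were both driven by the probasin promoter, which is active in prostate epithelium, so the other cells of the tissue do not make the Cre or the transgene by design. WT mice were littermates from a cross of several mouse lines. The paper calls the double-mutant tissue prostate tumors and that of the single mutants prostatic tissues. Genotype and the presence of tumor therefore cannot be told apart in comparisons with the double-mutant group. In the tables, ERG, to which transgene reads can also map, was at 5.81 to 11.5 FPKM in Pb-T2-ERG and 6.65 to 19.6 in double-mutant, and at 0.441 to 0.851 in the other 5 libraries, while TRP53 ranged from 2.55 to 7.73, a level that is no check of the deletion, because the Cre is made in only some cells of the tissue. Whether WT and Pb-T2-ERG mice carried the Cre is not stated in the labels, and nothing there says that a library pooled animals.

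MHC class I molecules show peptides from inside the cell to CD8 T cells and are made by nearly all nucleated cells. A heavy chain (H2-K or H2-D) pairs with the light chain beta-2-microglobulin, and the TAP transporter brings in peptides that the proteasome has cut. Class II molecules show peptides taken up from outside to CD4 T cells and are made mainly by dendritic cells, macrophages and B cells, under the control of the transactivator CIITA, while other cells can be induced to make them by interferon gamma.

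Promoter sequence is shown because class I and class II genes are known to share an upstream module that holds X and Y boxes. It is reference sequence and does not bear on differences between libraries. RefSeq promoter windows (250 bases before to 50 after the annotated start, GRCm38.p6) were given for 7 of the 10 members: H2-K1, H2-D1, B2M, TAP1, PSMB8, H2-AA and H2-EB1. The 4 stretches shown, each of 125 bases, end 21 bases before the start and are read 5′ to 3′ on the strand of the gene. They are the class II alpha chain H2-AA (chr17:34287844-34287968, minus strand), the class II beta chain H2-EB1 (chr17:34305722-34305846, plus strand), the light chain B2M (chr2:122147542-122147666, plus strand) and the heavy chain H2-K1 at one of its 2 annotated starts (chr17:34000354-34000478, minus strand). None of the 4 stretches overlaps an annotated exon. Capitals mark the letters searched for.
H2-AA: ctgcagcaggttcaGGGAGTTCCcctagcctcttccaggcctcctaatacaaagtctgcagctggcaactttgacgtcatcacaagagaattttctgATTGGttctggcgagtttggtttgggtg
H2-EB1: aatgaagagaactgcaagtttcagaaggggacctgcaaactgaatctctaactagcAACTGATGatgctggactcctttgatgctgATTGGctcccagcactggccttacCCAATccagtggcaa
B2M: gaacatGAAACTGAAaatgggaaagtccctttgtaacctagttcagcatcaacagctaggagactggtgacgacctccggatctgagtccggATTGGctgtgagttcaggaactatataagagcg
H2-K1: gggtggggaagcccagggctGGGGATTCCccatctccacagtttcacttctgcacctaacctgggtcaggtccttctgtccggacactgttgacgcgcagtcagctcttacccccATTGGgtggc
The Y box letters ATTGG, read on both strands, were 48 bases before the start in H2-AA, 59 in H2-EB1, 53 in B2M and 30 in H2-K1, with a further match on the other strand (CCAAT) 35 bases before the start of H2-EB1, and 37.4% of all 32851 windows held them. In total 6 of the 7 members held the Y box letters, PSMB8 being the exception. The X box core searched, AACNGATG, was in H2-EB1 alone among the 7, 89 bases before the start, against 2.32% of all windows. H2-AA, H2-K1 and H2-D1 held the NF-kB letters GGGNNTTCC, found in 5.82% of windows. B2M held the interferon response letters GAAANNGAA (8.56% of windows), and PSMB8 held the STAT letters TTCNNNGAA, which read the same on both strands (8.3%). The ETS letters CCGGAAGT were in none of the 7 windows and in 3.89% of all. No match overlapped one of another motif in the stretches shown. A match is a description of letters and not a measured binding site.

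Totals per library ranged from 14280978 to 51965100 fragments. Between 60.3% and 95.5% of the fragments fell in the listed loci, with the lowest shares in Pb-T2-ERG replicate 2 (60.3%) and double-mutant replicate 2 (74.8%). The small RNAs RN7SK, RPPH1 and RMRP took from 0.886% to 10.3% of the fragments. They took 4% or more in 1 WT, 1 Trp53pcR172H/- and all 3 double-mutant libraries and less in all 3 Pb-T2-ERG libraries, so this class of library and the difference between Pb-T2-ERG and double-mutant cannot be told apart. The largest members were measured on many fragments (27429 to 95479 for B2M). CIITA rested on 20 to 888 fragments, and H2-EB1 on 28 to 1784.

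Some libraries also stood apart in the MHC region itself, although the labels of all 11 give 1 strain. H2-EB1 was between 0.165 and 0.6 of H2-AA in 7 libraries. In Pb-T2-ERG replicates 2 and 3, Trp53pcR172H/- replicate 2 and double-mutant replicate 2 the ratios of these per-length values were 0.0157, 0.00909, 0.0187 and 0.00826. The class I genes H2-T22 and H2-T10, which lie elsewhere in the MHC, divided the libraries in the same way, and were chosen after their values were seen. H2-T22 was between 0.209 and 0.308 of H2-T10 in those 4 libraries and between 2.35 and 22.1 of it in the other 7. Results are therefore also given without these 4 libraries, which leaves 1 Pb-T2-ERG and 1 Trp53pcR172H/- library and 3 residual degrees of freedom, the lone libraries being assumed to vary like the other groups. The cause of this division was not tested.

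All members but B2M and H2-EB1 had higher means than WT in each mutant group. Their highest means were in the double-mutant and Pb-T2-ERG groups, with large differences between libraries of 1 group. In bulk tissue, fewer cells of a type and less RNA per cell cannot be told apart, and this holds for every level given here. In the double-mutant group 4 of the 10 members rose at an adjusted p under 0.05 against WT, where 25.3% of all loci passed. They were H2-AA, H2-AB1, CD74 and PSMB8. The other members, H2-K1, H2-D1, B2M, TAP1, H2-EB1 and CIITA, did not pass in any comparison in the main limma model. Among the alternatives tried for double-mutant against WT, CIITA passed 0.05 in 4 of 21, H2-D1 in 5 of 23 and TAP1 in 1 of 23. H2-K1, B2M and H2-EB1 passed in 0 of 23. None of the 10 passed the adjusted p of 0.001 in any comparison of groups.

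**Figure D1:**
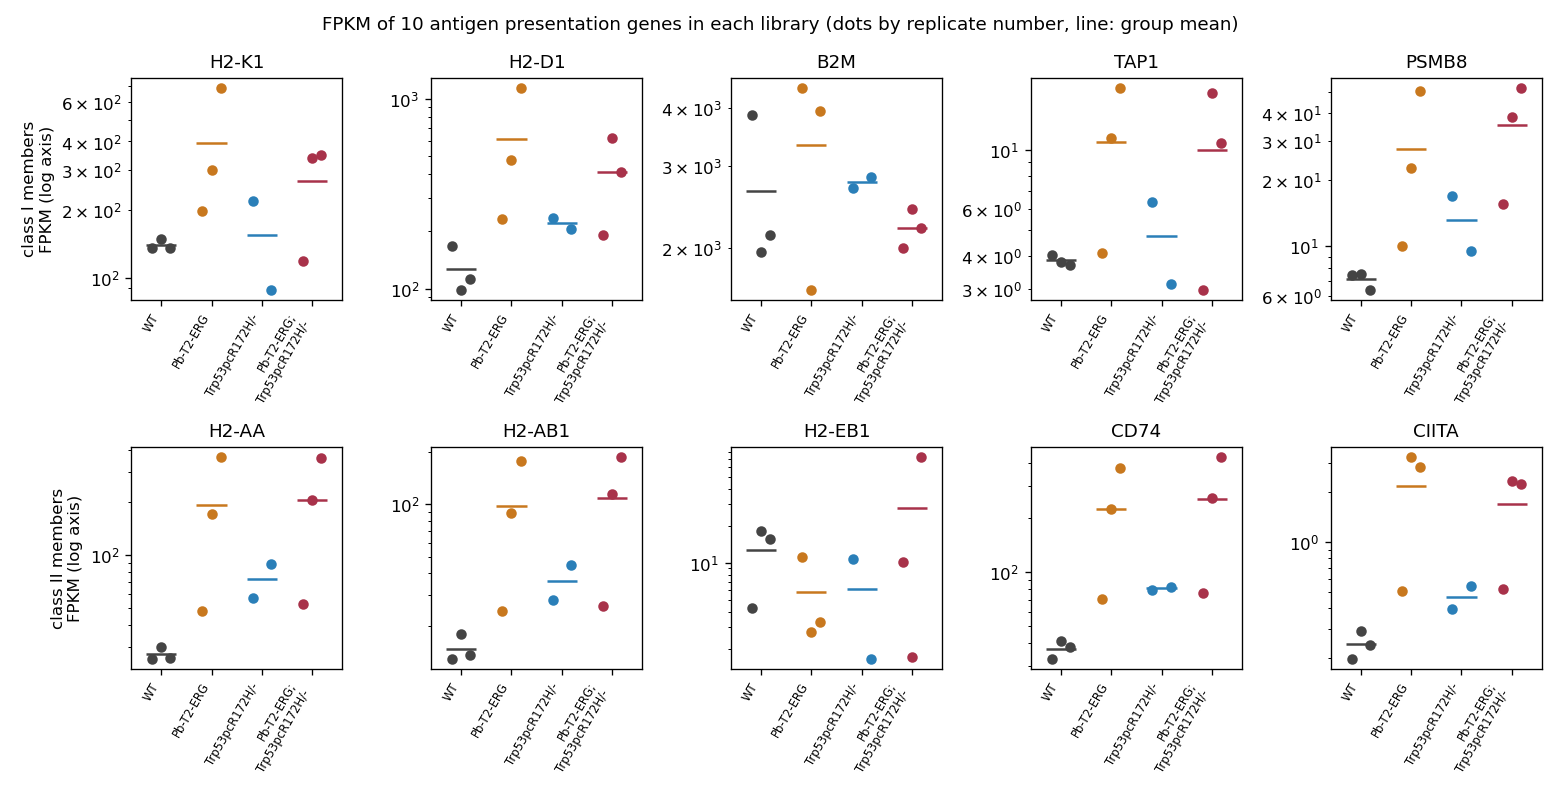
FPKM (log axis, a scale of its own in each panel) of the 5 class I members (top) and 5 class II members (bottom), 1 dot per library in order of replicate number, line at the group mean. In the H2-AA panel the 3 WT libraries lie between 25.8 and 30.2 while the double-mutant libraries spread from 52.6 to 359.

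H2-AA (chromosome 17, 34282744 to 34287827, GRCm38) encodes the alpha chain of the class II molecule I-A. The WT libraries had an FPKM of 25.8, 30.2 and 25.8, and the Pb-T2-ERG libraries had 47.9, 172 and 361. Trp53pcR172H/- gave 57.1 and 88.7, and double-mutant 52.6, 207 and 359. Every mutant library lay above all 3 WT libraries, and replicate 1 of Pb-T2-ERG and of double-mutant lay far below the others of their groups. The mean rose 7.56-fold from WT (27.3 ± 2.53, SD, n = 3) to double-mutant (206 ± 153, n = 3). On the log2(FPKM + 1) scale the difference was 2.5 (SE 0.746, limma adjusted p = 0.0319).

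H2-AB1 (chromosome 17, 34263209 to 34269418) encodes the beta chain that pairs with it. In FPKM, WT was at 12.9, 17.9 and 13.6 and Pb-T2-ERG at 24.2, 89.6 and 178. Values of 28.1 and 44.5 were found for Trp53pcR172H/-, against 26.0, 115 and 186 for double-mutant. The pattern was that of H2-AA, and the ratio of H2-AB1 to H2-AA stayed between 0.492 and 0.592 over all 11 libraries. The log2 fold change from WT to double-mutant was 2.42 (SE 0.749, adjusted p = 0.0369).

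CD74, the invariant chain that guides class II molecules to the endosome, lies on chromosome 18 (60803848 to 60812646) and so outside the MHC. Its level was 32.9, 41.0 and 38.1 FPKM over the WT libraries, while Pb-T2-ERG gave 70.9, 223 and 379.7. The 2 Trp53pcR172H/- libraries stood at 79.6 and 82.5 and the 3 double-mutant ones at 76.1, 256 and 432. CD74 kept between 0.930 and 1.48 times the H2-AA value in each library. It rose by 2.42 on the log2 scale from WT to double-mutant (SE 0.653, adjusted p = 0.0206). A small RNA locus, MIR5107, lies within CD74, and strand use in the counting is not given in the sources used here.

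CIITA (chromosome 16, 10488178 to 10527564) encodes the class II transactivator and was the least abundant member. The WT libraries had an FPKM of 0.199, 0.292 and 0.241, and the Pb-T2-ERG libraries had 0.506, 3.25 and 2.85. Trp53pcR172H/- gave 0.394 and 0.546, and double-mutant 0.526, 2.33 and 2.25. All mutant libraries were above WT, and the 4 libraries with the highest CIITA were the 4 with the highest CD74. The log2 fold change to double-mutant, 1.03 (SE 0.400, adjusted p = 0.0815), did not pass 0.05, and on the log2(FPKM + 1) scale it understates a 6.98-fold difference of the means. The locus overlaps DEXI, so fragments of the 2 cannot be fully told apart.

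H2-EB1 (chromosome 17, 34305877 to 34316199), the beta chain of the class II molecule I-E, did not follow the others. Whether every mouse carried the MHC sequence of the reference genome was not tested, so in the 4 libraries that stood apart a low level of this gene and a loss of fragments in alignment cannot be told apart, and the same holds for the other genes of the MHC region. In FPKM, WT was at 4.25, 18.1 and 15.5 and Pb-T2-ERG at 11.17, 2.71 and 3.28. Values of 10.6 and 1.66 were found for Trp53pcR172H/-, against 10.2, 1.71 and 71.7 for double-mutant. The 4 groups overlapped, and double-mutant held both the highest library of all and one of the 2 lowest. Its log2 fold change from WT was 0.14 for double-mutant (SE 1.04, limma adjusted p = 0.936), a direction that turned to -0.09 under median-of-ratios scaling and upper-quartile scaling.

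The locus H2-EA-PS, the alpha chain gene of I-E and annotated as a pseudogene, was looked at after these values were seen. C57BL/6 mice are known to make no I-E alpha chain. Its level was 4.36, 6.72 and 11.7 FPKM over the WT libraries, while Pb-T2-ERG gave 9.61, 2.92 and 3.38. The 2 Trp53pcR172H/- libraries stood at 9.78 and 0.612 and the 3 double-mutant ones at 11.7, 2.74 and 65.6. Its low and high libraries were those of H2-EB1, and H2-EB1 kept between 0.625 and 2.7 times its value. No other gene shared a run of 50 bases with the H2-EB1, H2-EA-PS, H2-AA or H2-AB1 transcript.

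**Figure D2:**
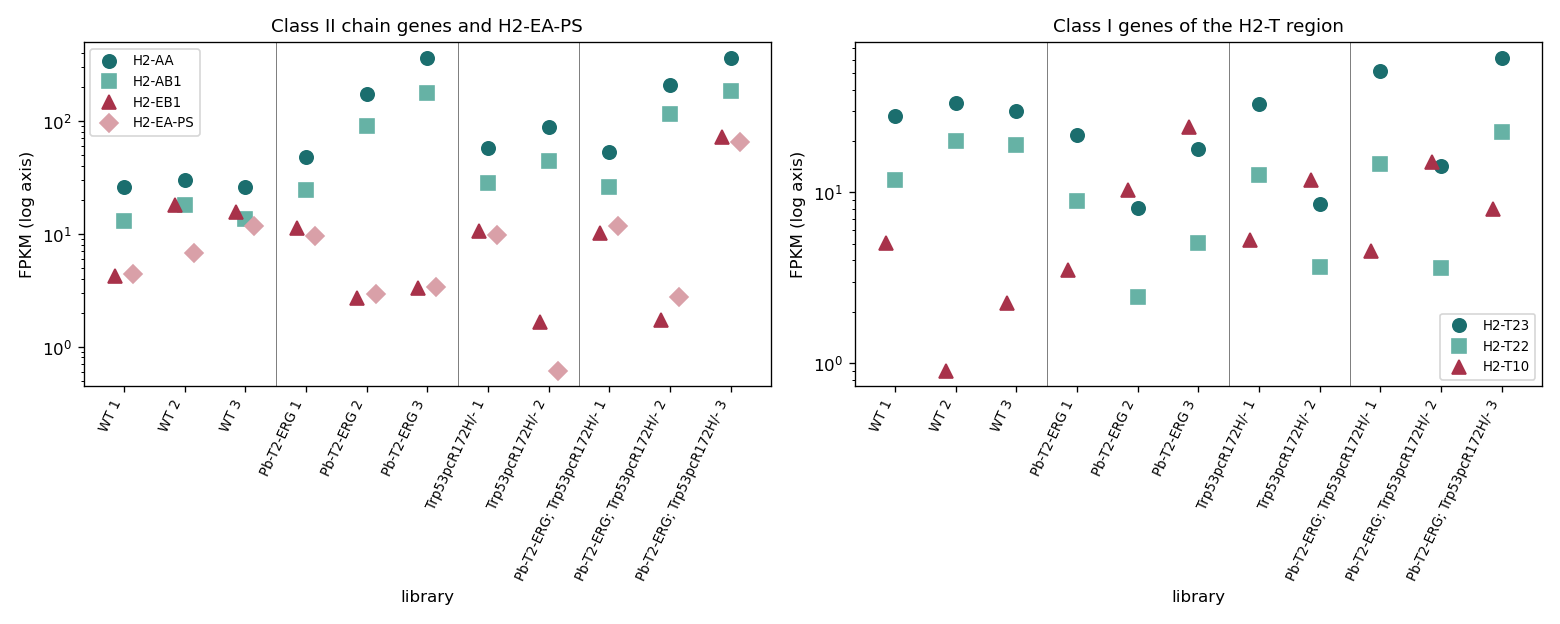
FPKM (log axis) in each of the 11 libraries of the class II chain genes with H2-EA-PS (left) and of 3 class I genes of the H2-T region (right), grey lines between groups. H2-EB1 and H2-EA-PS drop to between 0.612 and 3.38 in the 4 libraries in which H2-T22 lies below H2-T10, while H2-AA there reaches 88.7 to 361.

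H2-K1 (chromosome 17, 33996017 to 34000333) encodes a classical class I heavy chain. The WT libraries had an FPKM of 136, 149 and 135, and the Pb-T2-ERG libraries had 198, 299 and 686. Trp53pcR172H/- gave 219 and 88.7, and double-mutant 119, 339.8 and 348. All Pb-T2-ERG libraries exceeded WT, but 1 Trp53pcR172H/- and 1 double-mutant library lay below it. The log2 fold change from WT was 0.78 for double-mutant (SE 0.547, adjusted p = 0.316) and 1.29 in Pb-T2-ERG (SE 0.547, adjusted p = 0.229).

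H2-D1 (chromosome 17, 35262730 to 35267499) is the other classical heavy chain gene. In FPKM, WT was at 167, 98.8 and 112 and Pb-T2-ERG at 232, 477 and 1132. Values of 235 and 206 were found for Trp53pcR172H/-, against 192, 624 and 413 for double-mutant. Every mutant library lay above every WT library. The differences from WT on the log2 scale, 1.57 in double-mutant (SE 0.572, adjusted p = 0.0666) and 2.02 in Pb-T2-ERG (SE 0.572, adjusted p = 0.0968), missed 0.05. Near-identical sequence limits both heavy chains: 14.3% of the 50-base runs of the longest H2-D1 transcript and 8.79% of those of H2-K1 occur in other genes, mainly each other and H2-Q genes, so their fragments could have been assigned to a neighbour.

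B2M (chromosome 2, 122147686 to 122153083), the light chain common to all class I molecules, was the most abundant member. Its level was 3864, 1959 and 2123 FPKM over the WT libraries, while Pb-T2-ERG gave 4409, 1622 and 3938. The 2 Trp53pcR172H/- libraries stood at 2689.9 and 2838 and the 3 double-mutant ones at 1994, 2427 and 2201. Highest and lowest values were both in Pb-T2-ERG. The double-mutant difference from WT was -0.20 on the log2 scale (SE 0.522, adjusted p = 0.805) and turned to 0.11 without WT replicate 1. B2M was 18.9 to 23.1 times H2-D1 in WT, and 3.40 to 5.32 times in replicates 2 and 3 of Pb-T2-ERG and double-mutant, where the heavy chain was higher. The locus overlaps PATL2.

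TAP1 (chromosome 17, 34187553 to 34197225) encodes a subunit of the peptide transporter. Its level was 4.05, 3.81 and 3.71 FPKM over the WT libraries, while Pb-T2-ERG gave 4.10, 11.15 and 17.1. The 2 Trp53pcR172H/- libraries stood at 6.38 and 3.13 and the 3 double-mutant ones at 2.99, 16.4 and 10.6. The double-mutant libraries lay on both sides of the narrow WT range. The log2 fold change was 0.94 (SE 0.544, adjusted p = 0.229). TAP1 overlaps PSMB9 in the tables.

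PSMB8 (chromosome 17, 34197790 to 34201454), a catalytic subunit of the immunoproteasome, was the only class I member to pass 0.05 in double-mutant against WT. The WT libraries had an FPKM of 7.41, 7.51 and 6.38, and the Pb-T2-ERG libraries had 10.05, 22.6 and 50.3. Trp53pcR172H/- gave 16.8 and 9.51, and double-mutant 15.6, 38.4 and 51.6. No mutant library overlapped WT. The double-mutant mean was 4.96-fold that of WT, or 2.01 higher on the log2 scale (SE 0.534, limma adjusted p = 0.0193). PSMB5, the constitutive subunit that PSMB8 replaces, differed by 0.22 (limma adjusted p = 0.670). The ratio of PSMB8 to PSMB5 was 0.228 to 0.273 in WT and 0.686 to 1.27 in the double-mutant libraries. It was 0.371 to 1.90 for Pb-T2-ERG and 0.245 and 0.716 for Trp53pcR172H/-. PSMB8 overlaps the predicted locus GM20496.

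**Figure D3:**
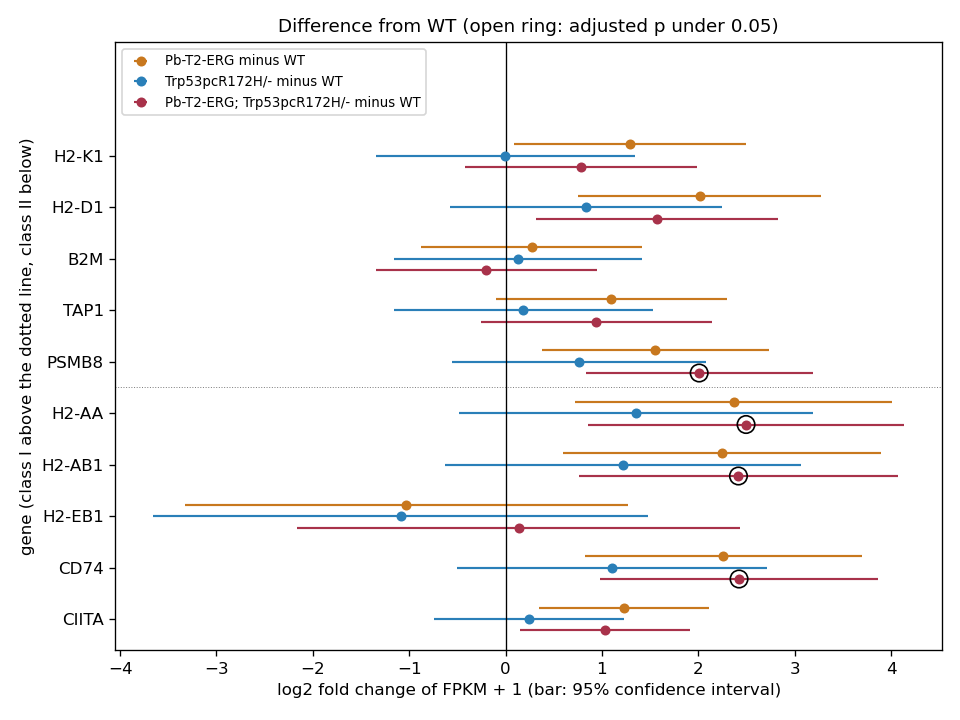
Log2 fold change from WT of each member in the 3 mutant groups, with the 95% confidence interval of the limma fit, open rings at an adjusted p under 0.05. Rings stand only at PSMB8 (2.01), H2-AA (2.5), H2-AB1 (2.42) and CD74 (2.42) in the double-mutant comparison.

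The comparison of double-mutant with WT asks what differed with both lesions together, in tissue that the paper calls tumor. Of the 10 members 0 passed 0.001, where 3.96% of all loci tested passed, and 4 passed 0.05, all higher, against 25.3% of all loci. The median difference of the members was 1.3 on the log2 scale and that of all loci 0.25, and 8 of 10 members were above the latter. After median-of-ratios scaling the median of all loci was 0.04 and the higher calls among all loci went from 2969 of 3945 to 2359 of 4520. PSMB8 and CD74 then still passed 0.05 while H2-AA (adjusted p = 0.0543) and H2-AB1 (adjusted p = 0.0636) did not. The double-mutant libraries did not overlap WT for 6 of 10 members, all higher, and 44.8% of all loci did not overlap. Single libraries decided the count: 0 members passed without WT replicate 1, without WT replicate 3, without double-mutant replicate 2 or without double-mutant replicate 3, 2 without WT replicate 2, and 7 without double-mutant replicate 1. Over all loci, these fits passed from 2365 of 15536 (without WT replicate 3) to 3726 of 15330 (without double-mutant replicate 3). Without double-mutant replicate 1 it was 3340 of 15348.

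Within the libraries rich in the small RNAs, with 3 double-mutant libraries and 1 WT library, the differences of the same 4 members were 1.93 for PSMB8, 2.35 for H2-AA, 2.15 for H2-AB1 and 2.28 for CD74. With the class as a covariate 0 members passed 0.05, while the log2 fold changes were 2.18 for PSMB8, 2.23 for H2-AA, 2.08 for H2-AB1 and 2.33 for CD74. Without the 4 libraries that stood apart in the MHC region the log2 fold change was 1.87 for PSMB8 (adjusted p = 0.0396), 2.3 for H2-AA (0.0781), 2.18 for H2-AB1 (0.0938) and 2.26 for CD74 (0.0654), so that 1 of 9 members tested passed. H2-EB1 was then at 1.27 (adjusted p = 0.355). Without the 2 libraries with under 80% of fragments in listed loci 0 members passed, with 1.87 for PSMB8, 2.3 for H2-AA, 2.18 for H2-AB1 and 2.26 for CD74. Of the compared groups, both sets of left-out libraries remove double-mutant replicate 2 alone. The log2 fold changes are therefore the same, and only the estimate of the spread and the loci tested differ.

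The comparison of Pb-T2-ERG with WT, which shares the WT libraries, asks what the transgene changed by itself. Among the members 0 passed 0.001 (0% of all loci) and 0 passed 0.05 (1.9% of all loci) in limma. An unadjusted p under 0.05 was found for 7 members and for 3022 of the 15583 loci. Limma-voom on recovered fragments also gave 0 members at either adjusted threshold. The log2 fold changes were 2.37 for H2-AA (adjusted p = 0.124), 2.25 for H2-AB1 (0.143), 2.26 for CD74 (0.102), 1.55 for PSMB8 (0.152), 1.23 for CIITA (0.137), 1.10 for TAP1 (0.292), 0.27 for B2M (0.800) and -1.03 for H2-EB1 (0.602). The Pb-T2-ERG libraries did not overlap WT for 8 of the 10 members, all higher, against 29.4% of all loci. Without the 4 libraries that stood apart in the MHC region 0 passed. Without Pb-T2-ERG replicate 1, the lowest of its group for every class II member but H2-EB1, 6 members passed 0.05, where 1321 of 15524 loci did. Without double-mutant replicate 1, 1 member passed, where 452 of 15348 loci did. Within the libraries poor in the small RNAs, 3 against 2, the H2-AA difference was 2.44 and that of CD74 was 2.33.

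The Trp53pcR172H/- group rested on 2 libraries. None of the members passed 0.001 (0% of all loci) or 0.05 (0.00642% of all loci), 0 had an unadjusted p under 0.05, and limma-voom called 0. The log2 fold changes from WT were 1.36 for H2-AA, 1.22 for H2-AB1, 1.10 for CD74, 0.84 for H2-D1 and 0.76 for PSMB8, each with an adjusted p of 1. For 6 of 10 members both libraries lay above all WT libraries, where 17.2% of all loci did not overlap. The 95% interval of the H2-AA difference ran from -0.48 to 3.19, so neither no change nor a large rise was outside it.

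The double-mutant group was set against each single mutant, and the interaction against additivity. Against Pb-T2-ERG, 0 members passed 0.001 (0.475% of all loci) or 0.05 (9.11%), the smallest adjusted p was 0.535, and the median of the members was -0.01. Against Trp53pcR172H/-, 0 passed 0.001 (1.1%) or 0.05 (14.8%), with a smallest adjusted p of 0.193 for PSMB8. For the interaction 0 passed 0.001 (0%) or 0.05 (0.468%), and the smallest adjusted p was 0.715. In these 3 comparisons 0 members had an unadjusted p under 0.05, and limma-voom called 0. The intervals were wide. For H2-AA the double-mutant minus Pb-T2-ERG difference was 0.13, with a 95% interval from -1.51 to 1.77.

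Class I and class II were also set side by side in each library, as the mean log2(FPKM + 1) of the 5 members of each class. The class II mean ran from 3.26 to 3.84 over WT and from 4.13 to 5.72 over Pb-T2-ERG, was 4.08 and 4.22 for Trp53pcR172H/-, and ran from 4.17 to 6.54 over double-mutant. The class I mean was 6.02 to 6.36, 6.68 to 8.27, 6.22 and 6.82, and 6.30 to 7.67 in the same order. The class I mean minus the class II mean was 2.55 ± 0.488 in WT (SD, n = 3) and 1.87 ± 0.811 in the double-mutant group (n = 3), which overlapped, and this difference was not tested. The lowest value, 0.964, was in double-mutant replicate 3, the library with the highest H2-EB1.

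Within the set, H2-AA and H2-AB1 had a Pearson r of 1.0 over the 11 libraries and H2-AA and CD74 an r of 0.99, as a description of log2 values that share libraries and groups. H2-K1 and TAP1 had an r of 0.94, and PSMB8 was closer to CD74 (0.97) than to H2-K1 (0.86). B2M had an r between -0.21 and 0.19 with each of the other 9 members, and H2-EB1 one between -0.34 and 0.01. Outside the set, the 5 loci most like the mean of H2-AA, H2-AB1, H2-EB1 and CD74 over the 11 libraries were PLD4 (r = 0.986), IRF5 (0.985), LAPTM5 (0.983), WAS (0.982) and CORO1A (0.982), of which LAPTM5 and CORO1A are leukocyte markers. The 5 most like the mean of H2-K1, H2-D1 and B2M were CCDC25 (0.947), GM8909 (0.946), PPP1R1B (0.944), GM11131 (0.939) and 1700003D09RIK (0.938). Both means hold a gene that departs from the rest. H2-EB1 had an r of 0.258 with the first mean, against 0.933 for H2-AA, 0.936 for H2-AB1 and 0.951 for CD74. B2M had an r of 0.393 with the second, against 0.929 for H2-K1 and 0.953 for H2-D1.

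Leukocyte markers were high in the libraries in which H2-AA, H2-AB1, CD74 and CIITA were high, while H2-EB1 did not follow them. PTPRC, CORO1A and LAPTM5 all rose in the double-mutant group (3 of 3 at 0.05), and their summed FPKM ran from 5.55 to 6.85 over WT, from 10.8 to 38.4 over Pb-T2-ERG, from 8.98 to 11.9 over Trp53pcR172H/- and from 9.64 to 81.3 over double-mutant, with none at 0. Of 8 macrophage and monocyte markers 5 rose, where 25.3% of all loci passed (summed FPKM 43.0 to 81.3 in WT and 111 to 689 in double-mutant), among them CD14 by 2.63 (adjusted p = 0.000259) and ADGRE1 by 1.97 (adjusted p = 0.0131). CD14 also rose in Pb-T2-ERG, by 1.91 (adjusted p = 0.0146). Of 8 dendritic cell markers 5 could be tested and 3 rose, ITGAX by the most (1.40, adjusted p = 0.00472). Without the 4 libraries that stood apart in the MHC region 0 of 3 leukocyte, 1 of 8 macrophage and 2 of 4 dendritic cell markers passed, and after median-of-ratios scaling 0 of 3 leukocyte markers did. The macrophage count was 3 without WT replicate 1 or 3 or double-mutant replicate 2 or 3 and after median-of-ratios scaling, 1 with the small RNA class as a covariate or without the 2 libraries with under 80% of fragments in listed loci, and 7 without double-mutant replicate 1. The leukocyte count was also 0 without any 1 of the 3 WT libraries or double-mutant replicate 2 or 3. Their part in the rise of the class II genes was not tested.

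Lymphocyte markers were low. The summed FPKM of the 5 B cell markers was 0.227 to 0.713 in WT and 0.202 to 7.25 in double-mutant libraries, and that of the 7 T cell markers 1.74 to 2.74 and 0.554 to 11.9. CD3E was at 0 in WT replicate 1 and in double-mutant replicate 1, which had CD74 at 32.9 and 76.1. Of the 1 B cell, 5 T cell and 1 NK cell markers that could be tested, none passed 0.05 in limma in the comparisons with WT, while without double-mutant replicate 1 the B cell and the NK cell marker and 4 of the T cell markers did against double-mutant. IFNG, the gene of the cytokine that induces CIITA, was at 0 in 7 of 11 libraries, all WT among them, and reached 0.271 at most in Pb-T2-ERG replicate 2.

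Per unit of PTPRC, CD74 spanned 2.25-fold from the lowest to the highest library. The ratio of CD74 to PTPRC was 21.9 to 33.5 in WT, 27.9 to 49.4 for Pb-T2-ERG, 28.1 and 43.1 for Trp53pcR172H/-, and 26.0 to 38.3 for double-mutant, so that double-mutant and WT overlapped. The ratio of H2-K1 to PTPRC was 90.3 to 119 in WT and 20.9 to 59.9 in the double-mutant libraries, which did not overlap. It was 40.2 to 89.1 for Pb-T2-ERG and 46.3 and 77.6 for Trp53pcR172H/-, so every mutant library lay below every WT library. PSMB8 per PTPRC overlapped between all groups, at 4.93 to 5.60 in WT and 3.10 to 7.85 in double-mutant.

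**Figure D4:**
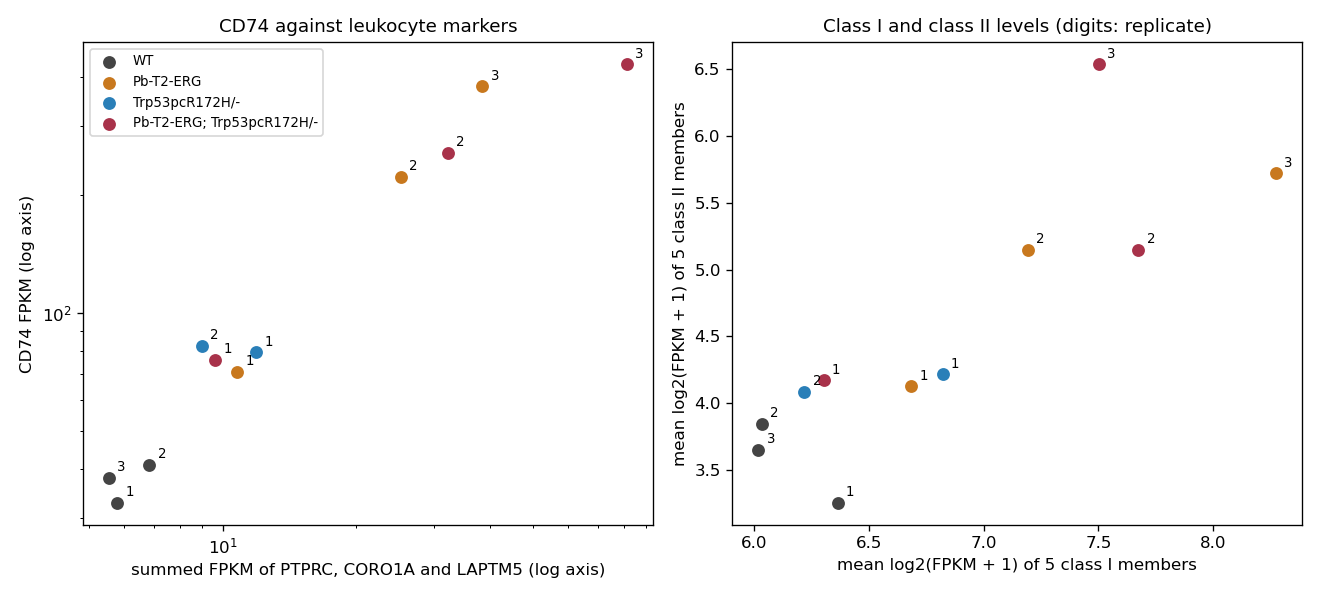
Left, CD74 FPKM against the summed FPKM of the leukocyte markers PTPRC, CORO1A and LAPTM5, both on log axes. Right, the class II mean against the class I mean in log2(FPKM + 1), 1 dot per library with its replicate number. The 4 libraries with CD74 above 200 FPKM are those with a marker sum of 25.2 or more, and double-mutant replicate 3 has the highest class II mean, 6.54.

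Other tissue components differed as well. All 4 smooth muscle markers fell in the double-mutant group, and MYH11 fell by 4.83 (adjusted p = 0.00198), and their summed FPKM was 782 to 1066 in WT and 30.6 to 230 in double-mutant libraries. All 4 endothelial markers rose, CDH5 by 2.09 (adjusted p = 0.000647). Of 8 prostate epithelium markers 4 fell and 1 rose, with PBSN, the gene whose promoter drives the transgenes, at a log2 fold change of -4.63 (adjusted p = 0.00465), while none of the 8 was at 0 in any library. The 4 lower calls became 2 without any 1 of the WT libraries, Trp53pcR172H/- replicate 2 or double-mutant replicate 3 and 1 with the small RNA class as a covariate, and the higher call was lost without any 1 of the WT libraries, double-mutant replicate 1 or 2 and after median-of-ratios scaling. Seminal vesicle markers ranged from 62.5 to 24911 in summed FPKM over Pb-T2-ERG libraries. The part of these shifts in the values of the members was not tested.

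The other genes of the class I pathway moved in both directions. Of 15 non-classical heavy chain genes 13 could be tested, and in double-mutant against WT 4 were higher and 2 lower at 0.05 (25.3% of all loci passed), with a median of 0.74 against 0.25 for all loci. CD1D1, which presents lipids to NKT cells, rose by 2.21 (adjusted p = 7.7e-05), from 0.358 to 0.947 FPKM in WT to 5.94 to 7.05 in the double-mutant libraries, and was high in all 3 of the latter, double-mutant replicate 1 included. H2-Q4 rose by 1.70 (adjusted p = 0.0471) and H2-Q2 by 1.68 (adjusted p = 0.0312), while H2-Q10 fell by 1.62 (adjusted p = 0.0142). H2-T24 (1.47, adjusted p = 0.00622) and MR1 (-1.20, adjusted p = 0.0143), which presents vitamin metabolites, were the other 2 and are named because they complete the count. CD1D1 was also higher than in Pb-T2-ERG (1.61, adjusted p = 0.00126) and than in Trp53pcR172H/- (2.16, adjusted p = 0.000346). The 4 higher calls became 2 without WT replicate 2 or 3 or without double-mutant replicate 2 or 3. The 2 lower calls became 0 without WT replicate 1 and with the small RNA class as a covariate. Without the 2 libraries with under 80% of fragments in listed loci, the higher calls were 2, CD1D1 (2.22) and H2-T24 (1.65). After median-of-ratios scaling they were 3, without H2-Q4. Runs of 50 bases are shared by H2-K1 and H2-Q4, so fragments of H2-Q4 could also have been assigned to a neighbour.

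None of the 8 genes of the peptide loading complex, TAP1 among them, passed 0.05 in limma (2 at an unadjusted p under 0.05, median 0.15), while 2 were lower after median-of-ratios scaling. Of the 5 genes of the immunoproteasome and its activator PA28, 2 rose in the double-mutant group, PSMB8 and PSMB10 (1.10, adjusted p = 0.0352), with a median of 1.10, a count to be read against the 25.3% of all loci that passed. The count was 0 without WT replicate 1 or 3 or without double-mutant replicate 2 or 3, 1 without WT replicate 2, and 4 without double-mutant replicate 1. It was 1, PSMB8, after median-of-ratios scaling. With the small RNA class as a covariate it was 0, and also without the 2 libraries with under 80% of fragments in listed loci. The 3 constitutive subunits PSMB5, PSMB6 and PSMB7 had log2 fold changes between -0.01 and 0.22 and none passed. PSMB9 went from 4.46 to 4.81 FPKM in WT to 3.46, 20.4 and 21.5 in the double-mutant libraries, with 1 library below WT (log2 fold change 1.21, adjusted p = 0.161).

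Of the 10 class II loading genes 8 could be tested and 4 rose at 0.05 in double-mutant against WT, where 25.3% of all loci passed. The median of the 8 was 1.48, against 0.25 for all loci. CTSS, the protease that trims the invariant chain, rose by 3.19 (adjusted p = 0.000976), from 7.45 to 10.9 FPKM in WT to 46.5 to 166 in the double-mutant libraries. LGMN, an endosomal protease, rose by 2.19 (adjusted p = 0.00168), CTSL by 1.15 (adjusted p = 0.0153), and CD74 was the remaining one. These proteases also work in lysosomes in general. In double-mutant replicate 1, the lowest of its group for H2-AA, CTSS was at 46.5 and LGMN at 41.4 FPKM, above all WT libraries. LGMN also passed 0.05 against Pb-T2-ERG (1.29, adjusted p = 0.0498). The count was 2 without WT replicate 1 and 7 without double-mutant replicate 1.

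Of 9 transactivators and X or Y box factors 1 passed, against 25.3% of all loci. It was NFYA, a subunit of the factor that binds the Y box, at 0.82 (adjusted p = 0.0412), and the count was 0 without any 1 of the WT or Trp53pcR172H/- libraries, Pb-T2-ERG replicate 2 or 3 or double-mutant replicate 2. NLRC5, the class I transactivator, was at 0.0842 to 0.143 FPKM in WT and at 0.117, 2.80 and 1.28 in the double-mutant libraries (0.94, adjusted p = 0.190), and was lowest of its group in double-mutant replicate 1, as CIITA was. In the interferon gamma pathway 3 of 8 genes tested rose, where 25.3% of all loci passed: IRF1 by 1.18 (adjusted p = 0.00733), SOCS1 by 0.99 (adjusted p = 0.0141) and JAK1 by 0.98 (adjusted p = 0.00694). IRF1, SOCS1 and JAK1 also passed without the 4 libraries that stood apart in the MHC region and after median-of-ratios scaling, where IFNGR1 was lower (-0.89, adjusted p = 0.0229).

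Of 10 type I interferon response genes 6 were higher at 0.05 in the double-mutant group, where 25.3% of all loci passed. The median of the 10 was 2.15, against 0.25 for all loci. ISG15, a ubiquitin-like modifier, rose by 3.14 (adjusted p = 0.0146), from 1.19 to 2.26 FPKM in WT to 4.43, 60.6 and 41.8 in the double-mutant libraries, again lowest in replicate 1. RSAD2 rose by 2.88 (adjusted p = 0.00429), IRF7 by 2.87 (adjusted p = 0.0195) and USP18 by 2.48 (adjusted p = 0.0143). None of the 10 passed in Pb-T2-ERG or Trp53pcR172H/- against WT, and 1, MX1, passed in double-mutant against Pb-T2-ERG (1.66, adjusted p = 0.0349). The count of 6 went to 2 without the 4 libraries that stood apart in the MHC region, to 1 without double-mutant replicate 2, to 3 without WT replicate 1, 2 or 3, and to 4 after median-of-ratios scaling.

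Costimulatory genes, whose products accompany antigen presentation on the cell surface, rose in the double-mutant group. Of 6 genes of costimulation and checkpoint 5 could be tested and 4 passed 0.05, where 25.3% of all loci did. They were ICOSL by 2.15 (limma adjusted p = 0.00333), CD40 by 1.35 (adjusted p = 0.00780), CD86 by 1.33 (adjusted p = 0.0248) and CD80 by 0.81 (adjusted p = 0.0283). CD274, which encodes PD-L1, had an FPKM of 0.249 to 0.475 in WT and 0.308 to 1.46 in the double-mutant libraries and did not pass (0.48, adjusted p = 0.212). CD40 also passed against Pb-T2-ERG (1.10, adjusted p = 0.0428) and ICOSL against Trp53pcR172H/- (2.08, adjusted p = 0.0108). Without double-mutant replicate 2 or 3 the count was 1 of 3 that could be tested, and it was 2 of 5 without WT replicate 1 or 3. With the small RNA class as a covariate it was 1 of 5.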

How the data were processed

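The deposited values were FPKM per gene locus, 1 table per library. According to the study's methods, the authors sequenced TruSeq RNA v2 libraries as paired ends, aligned them to GRCm38 (mm10) with STAR and counted with RSeQC. The submitters' processing notes give STAR 2.5.2b, the methods another version. Deposited FPKM lie on a grid of whole fragments. Totals recovered from loci of at most 200 bp made 99.5% to 99.8% of values there whole, within 0.01, and gave the depths, the RNA shares and the limma-voom alternative. Starts were converted to 1-based.

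Groups came from the labels. One limma model (3.58.1, R 4.3.3) with a variance trend and 4 group means was fitted to log2(FPKM + 1) of the 11 libraries, for loci that reached 1 FPKM in 2 or more libraries. P-values were two-sided and adjusted by Benjamini-Hochberg over 15583 loci, at thresholds of 0.001 (the study's) and 0.05. A fold change on this scale understates that of low genes. The fit was tested on simulated data. Members and lists were chosen with earlier results of these data known. Named genes were the 10 members, up to 4 with the largest change past 0.05 per other list, and the 5 loci most correlated with each class. PSMB9, NLRC5, CD274, IFNG, IFNGR1, H2-EA-PS, H2-T22, H2-T10 and the single cell type markers were chosen after their values were seen. Replicates are separate samples in the labels, and the study's methods call the RNA samples biological triplicates. In the Trp53pcR172H/- group, the paper adds, a mouse was left out because of its data quality. P-values are read on that description. Deviations from the group mean correlated between same-numbered Pb-T2-ERG and double-mutant libraries (r of 0.126, 0.249 and 0.33). They also did in the 2 pairs of WT and Trp53pcR172H/- (0.234 and 0.351), while the other pairs of groups had at least 1 r under 0.1. With 2 Trp53pcR172H/- libraries the deviations are exact opposites, so those 2 values are not separate. WT and Trp53pcR172H/- replicates 2 also share the class rich in the small RNAs (5.55% and 7.06%). The labels give no pairing, and these values do not establish one. In all, 23 alternatives were tried, 3 of them chosen after seeing the data: limma-voom and both sets of libraries left out. Some single genes of the lists are not reported here.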

Additional observations from a re-analysis of the deposited data

Results flagged for a closer look

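Among the members, lists and markers, 1 gene passed 0.05 in the interaction: SVA, a seminal vesicle secretory gene, with -4.63 on the log2 scale (limma adjusted p = 0.00283). It rose by 4.06 from WT to Trp53pcR172H/- and fell by 4.08 from Trp53pcR172H/- to double-mutant. B2M moved in opposite directions when Trp53pcR172H/- was added without and with Pb-T2-ERG, in every library measured against the mean of its control group, with a difference of -0.60 on the log2 scale. In the limma interaction this B2M difference had an adjusted p of 0.900, so it did not pass the test.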

How the results depend on the processing

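Of the 10 members, 4 passed 0.05 in double-mutant against WT. The count was 0 without a filter on low values, 2 under median-of-ratios scaling, 2 under upper-quartile scaling, 0 with the small RNA class as a covariate, 1 without the 4 libraries in which H2-T22 was under H2-T10 (CIITA was not tested there), and 0 without the 2 libraries with under 80% of fragments in listed loci. Over all loci the main limma model passed 3945 of 15583. It was 3622 of 29291 without the filter, 4520 of 15583 under median-of-ratios and 4478 under upper-quartile scaling. With the small RNA class as a covariate it was 2039 of 15583, and 3017 of 14845 without the 2 libraries with under 80%. Leaving out 1 library gave 0 to 7 members in double-mutant against WT and 0 to 6 in Pb-T2-ERG against WT. With a replicate block the count in double-mutant against WT was 5, and the block changed no other count, while same-numbered WT and Pb-T2-ERG libraries had a correlation of deviations of 0.001, 0.073 and -0.14. The log2 fold change of H2-EB1 in double-mutant against WT turned to -0.094 under median-of-ratios and -0.0871 under upper-quartile scaling and to -0.00349 in limma-voom on recovered fragments, and leaving out 1 library gave -1.10 to 1.27. That of H2-EB1 in Pb-T2-ERG was 0.0406 without the H2-T22 libraries. That of H2-K1 in Trp53pcR172H/- against WT turned to 0.243 with the replicate block, 0.0774 with the small RNA class and 0.646 without the H2-T22 libraries, and leaving out 1 library gave -0.651 to 0.646. Leaving out 1 library gave -0.381 to 0.109 for B2M in double-mutant, and in Trp53pcR172H/- -0.0521 to 0.438 for B2M and -0.233 to 0.604 for TAP1. The cause of these changes was not tested. The other comparisons had 0 members past 0.05 in every alternative run, and no alternative put a member past 0.001. Groups of 2 and 3 libraries, and the low fragment counts of CIITA and H2-EB1, limit what these data can show.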
